A study of Mus musculus with 6 samples.

Results

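The semaphorin, plexin, neuropilin, ephrin and Eph receptor genes were described in RNA sequencing of mouse bone marrow-derived macrophages. The macrophages were grown with M-CSF, the growth factor that drives their formation, and were sorted after culture with mEC25, which the labels call a cancer cell line. Before sorting, macrophages of 3 libraries had touched the mEC25 cells (contact), and those of the other 3 had been kept from them by a transwell membrane (transwell). The labels give no strain, age, genotype, culture time or sorting markers, and no library of macrophages without mEC25 cells or of mEC25 cells alone was analysed here. Members were all genes of the table with a symbol of these families and at least 30 counts over the 6 libraries. Of 56 genes with such a symbol among 56691, 41 reached that minimum. They were 15 semaphorins, 9 plexins, 2 neuropilins, 6 ephrins, 8 Eph receptors and Plxna4os1, a non-coding RNA antisense to a plexin gene. At the edge of the rule, Sema3a had 33 counts and Efna2, left out, had 27.

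Semaphorins are secreted or membrane-bound ligands that steer axons, vessels and immune cells. They bind plexins, large receptors that act on small GTPases, and most of the secreted class 3 proteins need a neuropilin as co-receptor. Ephrins are ligands fixed to the cell surface, by a lipid anchor (A) or a transmembrane segment (B), and their Eph receptor tyrosine kinases bind them where cells touch, with signals running into both cells. Macrophages are known for several class 4 semaphorins, for plexins of each class and for both neuropilins. Epithelia are known for EphA2, EphB4 and their ephrins.

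Libraries held 18173192 to 22563835 counts, and intervals on counts given below cover counting error only. Of 18 macrophage markers all were tested, 5 rose and 5 fell. Their summed level was 21200 to 23100 FPKM (fragments scaled to exon length and library total) in contact and 21700 to 22900 in transwell libraries. Most of this sum was Lyz2, at means of 12200 FPKM in contact and 13300 FPKM in transwell libraries, so it says little of the other markers. Cd14 had the largest rise (2.81-fold), and Fcgr1 (3.75-fold) and Adgre1 (2.3-fold) had the largest falls. Of 30 epithelial markers 25 could be tested and all 25 rose. Their sum was 1170, 1770 and 1010 FPKM in contact replicates 1 to 3 against 9.71 to 10.5 FPKM in transwell libraries, where 3 of them had no count. Fibroblast markers summed to 18.4 to 38.3 against 8.71 to 15.8 FPKM, endothelial markers to 13.5 to 15.8 against 7.81 to 8.13 FPKM, most of it Pecam1, which macrophages also express, and neural and glial markers to 4.38 to 6.96 against 0.47 to 0.59 FPKM. Neutrophil markers summed to 767 to 1130 FPKM in contact, and to 1140 FPKM in transwell replicate 1 against 487 to 510 in the other two. Most of this was S100a8 and S100a9, which were not called. Of 9 neutrophil markers tested 4 rose and 0 fell, where 21.4% of all genes tested rose and 16.1% fell. The 4 were Elane, Mpo, Retnlg and Cxcr2, at 4.89- to 7.44-fold. The part of these other cells in the results below was not tested. In bulk RNA more cells of a type and more RNA per cell cannot be told apart. The labels do not say whether libraries came from separate animals or cultures, so the p-values reflect the scatter of these 6 libraries alone, and that scatter may be technical.

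Contact and transwell libraries held similar summed levels of guidance genes, 273 ± 6.24 against 269 ± 3.33 FPKM (SD, n = 3) over the 40 protein-coding members, but with a different make-up. Eph receptors made up 3.85 ± 1.15% of that sum in contact and 0.154 ± 0.019% in transwell libraries, and ephrins 3.14 ± 0.904% against 0.371 ± 0.0451%. Semaphorins took 35.3 ± 1.06% against 28.1 ± 0.872%, and plexins 45 ± 1.97% against 56.6 ± 0.53%. All 8 Eph receptors and the 5 ephrins that could be tested were higher in contact, where 21.4% of all genes tested were called higher. However, 11 of these 13 entered the test through their contact counts alone, a route that favours higher values there. Their count is thus no support for a change of these families as such. The plexins most abundant in transwell libraries, Plxnb2 and Plxna1, and the neuropilin Nrp1 were lower, and class 4 semaphorins went both ways.

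**Figure D1:**
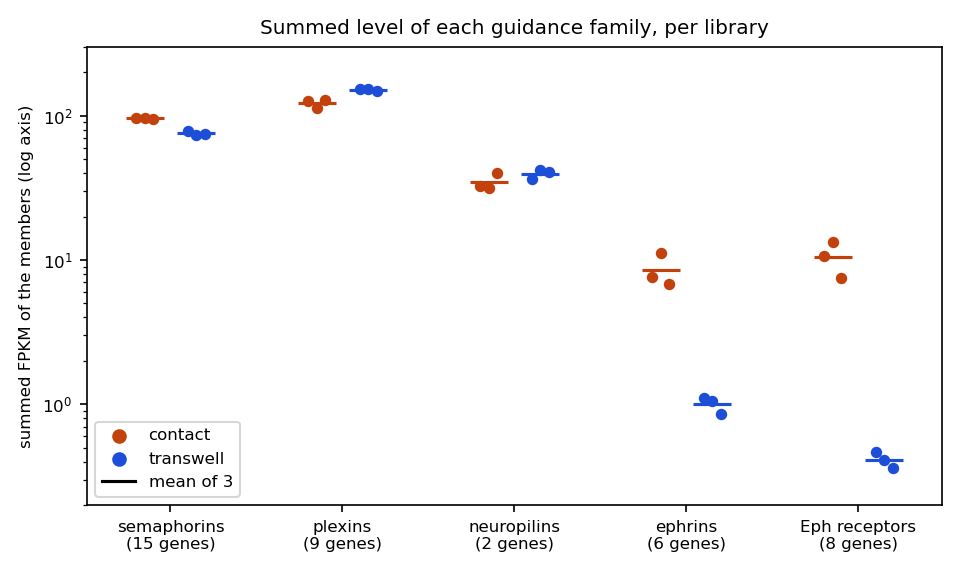
Summed FPKM of the members of each family (log axis), with a point for each library and a line at the mean of 3. Eph receptors lie at 7.48 to 13.3 FPKM in contact and 0.36 to 0.47 FPKM in transwell libraries, while neuropilins overlap between the groups.

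Of the 41 members 34 passed the filter on low counts and were tested with edgeR's quasi-likelihood test on counts. At an adjusted p under 0.05 (Benjamini-Hochberg, over all 14113 genes tested) 20 rose and 8 fell in contact, where 21.4% of all genes tested rose, 16.1% fell and 37.5% changed in either direction. Of the 20, 14 passed the filter through their contact counts alone, a route that favours genes higher in contact. The count of rises is thus no support for a change of the families as such. The median log2 change was 1.18 over the 34 members and 0.03 over all genes tested. Groups did not overlap for 28 of the 34, 20 higher and 8 lower, against 51.6% of all genes tested, 36.1% higher and 15.4% lower. The split of all genes, 3016 higher and 2270 lower, moved to 2390 and 3418 after quantile normalization of FPKM and to 3811 and 1422 in limma on log2(FPKM + 1) without further scaling, and that of the members to 15 and 9, and 18 and 7.

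Calls differed in direction between abundant and scarce members. Among the 12 members with a mean of at least 1 FPKM in transwell libraries 7 fell and 2 rose, where 20.6% of all genes at that level fell and 14.6% rose. Among the 22 tested members below 1 FPKM 18 rose and 1 fell, where 40.2% of all genes tested at that level rose and 3.43% fell, and 14 of the 18 had passed the filter through contact alone. A division by transwell level favours falls above it and rises below it.

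**Figure D2:**
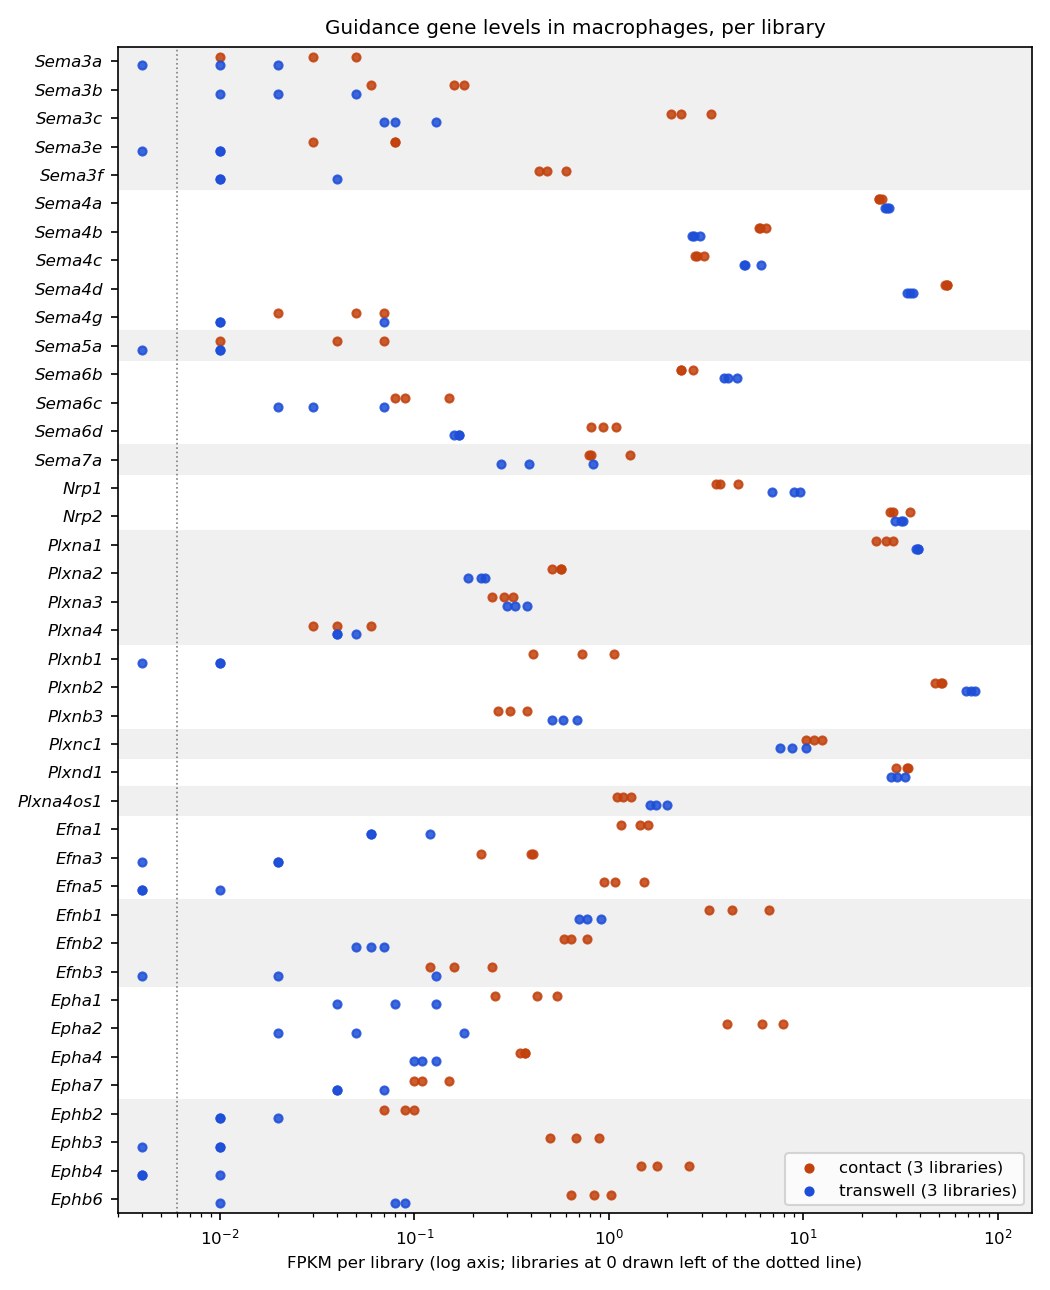
FPKM of the 41 members in each of the 6 libraries (log axis, members in bands by family, libraries at 0 left of the dotted line). Sema4d, Plxnb2, Nrp2, Plxna1, Plxnd1 and Sema4a lie above 20 FPKM in every library, and the Eph receptors and A-type ephrins lie below 0.2 FPKM in every transwell library.

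Class 4 semaphorins, which are membrane-bound and known on immune cells, held most of the semaphorin level, at 88.3 ± 0.175 FPKM in contact and 70.6 ± 1.77 FPKM in transwell libraries. Sema4d (ENSMUSG00000021451, chromosome 13, 51685529 to 51793747 on GRCm38, protein-coding), a ligand of plexin-B1 and plexin-B2 that also binds the lymphocyte and macrophage receptor CD72, stood at 54.7, 53.41 and 54.89 FPKM in contact replicates 1 to 3 and at 36.87, 33.98 and 35.19 FPKM in transwell replicates 1 to 3. Every contact library lay above every transwell library, and Sema4d rose 1.42-fold (log2 change 0.50 ± 0.07, SE; edgeR adjusted p = 2.9e-04). Folds are after TMM scaling of the libraries and so lie below the contact over transwell ratio of the FPKM means. Sema4b, a close relative, rose by more, from 2.96, 2.67 and 2.74 FPKM in transwell to 5.99, 6.46 and 5.92 FPKM in contact libraries, 2.02-fold (1.02 ± 0.09, edgeR adjusted p = 2.2e-05).

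Sema4c and Sema4a lay lower in contact. Sema4c, a ligand of plexin-B2, went from 4.97, 6.07 and 5.01 FPKM in transwell to 3.08, 2.78 and 2.85 FPKM in contact libraries. The groups were apart, and the fall was 1.99-fold (-0.99 ± 0.11, edgeR adjusted p = 7.8e-05). An opposite-strand transcript, D430040D24Rik, shares 334 of its 4593 exon bases in GENCODE M21, and without a stated strand setting reads there cannot be told apart. Sema4a, which binds plexin-D1 and is known to act on T cells, stood at 24.64, 25.44 and 24.57 FPKM in contact and 27.74, 26.35 and 27.06 FPKM in transwell libraries. Its groups did not overlap either, but the difference was 1.18-fold (-0.24 ± 0.07, edgeR adjusted p = 0.0183) and the call ended under 8 of 17 alternatives, 3 of which left out contact replicate 1 (-0.23), contact replicate 3 (-0.23) or transwell replicate 3 (-0.24). Quantile normalization and unscaled FPKM were others that ended it.

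Plexins, the receptors of the semaphorins, summed to 123 ± 8.04 FPKM in contact and 152 ± 3.25 FPKM in transwell libraries. Plxnb2 (ENSMUSG00000036606, chromosome 15, 89155549 to 89180788 on GRCm38, protein-coding), the most abundant member in transwell libraries, stood at 73.17, 76.07 and 69.03 FPKM there and at 51.71, 47.53 and 51.33 FPKM in contact libraries. It fell 1.57-fold (-0.65 ± 0.07, edgeR adjusted p = 8.0e-05), with groups well apart. Sema4d and its receptor Plxnb2 thus changed order. The ratio of their FPKM values was 1.06, 1.12 and 1.07 in contact and 0.504, 0.447 and 0.51 in transwell libraries, and the ratios did not overlap. Plxna1, which pairs with neuropilins for class 3 ligands, binds Sema6D and is known to work with TREM2 and DAP12 in myeloid cells, fell from 38.83, 37.78 and 39.1 FPKM to 26.5, 23.6 and 28.94 FPKM (1.59-fold, -0.66 ± 0.09, edgeR adjusted p = 2.4e-04). Its exons share 970 of 9054 bases with an opposite-strand transcript, Gm26811. Trem2 stood at 61.96 to 69.63 FPKM in contact and 58.5 to 67.46 FPKM in transwell libraries, and Tyrobp, the gene of DAP12, at 812.94 to 847.84 and 807.57 to 909.03 FPKM, and neither was called (named after their values were seen; edgeR adjusted p = 0.517 and 0.108).

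Further plexins with high levels were not called. Plxnd1, a receptor of Sema3E and Sema4A, stood at 34.01, 30.1 and 34.71 FPKM in contact and 33.53, 28.23 and 30.45 FPKM in transwell libraries, with overlapping groups and a log2 change of -0.02 ± 0.09 (edgeR adjusted p = 0.914) whose sign turned under 8 alternatives. Plxnc1, the receptor of Sema7A, stood at 11.36, 10.28 and 12.43 against 7.61, 10.29 and 8.74 FPKM. The groups met at transwell replicate 2, the log2 change was 0.24 ± 0.12 (edgeR adjusted p = 0.136), and without that library Plxnc1 was called (0.33, adjusted p = 0.036).

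Less abundant plexins went both ways. Plxna2 rose from 0.19, 0.22 and 0.23 FPKM in transwell to 0.57, 0.51 and 0.57 FPKM in contact libraries (2.37-fold, 1.25 ± 0.15, edgeR adjusted p = 1.8e-04), a call that ended after quantile normalization (0.10). Plxnb3, a receptor known from glia, stood at 0.38, 0.27 and 0.31 FPKM in contact and 0.58, 0.69 and 0.51 FPKM in transwell libraries and fell 2.04-fold (-1.03 ± 0.24, edgeR adjusted p = 0.00727). Plxnb1, the high-affinity receptor of Sema4D, stood at 0.73, 1.07 and 0.41 FPKM in contact and at 0.01, 0.01 and 0 FPKM in transwell libraries. With 461 against 3 counts the rate ratio was 130 (95% interval 44.3 to 634, exact, counting error only), and the difference was called (edgeR adjusted p = 2.5e-05). Plxnb1 varied more between contact libraries than Plxnb2 did, and its highest and lowest values fell in the libraries with the highest and lowest epithelial marker sum. Plxna3 (0.25 to 0.32 against 0.3 to 0.38 FPKM) and Plxna4 (0.03 to 0.06 against 0.04 to 0.05 FPKM) overlapped between groups and were not called. The RNA Plxna4os1 lies on the other strand within Plxna4, shares no exon base with it in GENCODE M21, and stood at 1.3, 1.1 and 1.19 FPKM in contact and 1.99, 1.75 and 1.63 FPKM in transwell libraries. Groups did not overlap and the fall was 1.62-fold (-0.70 ± 0.21, edgeR adjusted p = 0.0266), but the call ended when contact replicate 1 (-0.76), 2 (-0.63) or 3 (-0.70) or transwell replicate 1 (-0.60) was left out.

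The neuropilins, which also bind vascular endothelial growth factor, differed from each other. Nrp1 (ENSMUSG00000025810, chromosome 8, 128358604 to 128503363 on GRCm38, protein-coding) stood at 3.71, 3.55 and 4.63 FPKM in contact and 6.88, 9.62 and 8.95 FPKM in transwell libraries. The groups were apart and Nrp1 fell 2.32-fold (-1.21 ± 0.14, edgeR adjusted p = 1.2e-04). Nrp2, at 28.97, 27.89 and 35.32 against 29.64, 32.6 and 31.71 FPKM, overlapped between groups and was not called (-0.14 ± 0.10, edgeR adjusted p = 0.287). Contact replicate 3 was the highest library for Nrp2, and without it Nrp2 was called lower (-0.26, adjusted p = 0.0333). Nrp1 reached 0.128, 0.127 and 0.131 of the Nrp2 level in contact and 0.232, 0.295 and 0.282 of it in transwell libraries.

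Class 3 semaphorins, the secreted ligands of neuropilin and plexin complexes, were close to absent from transwell libraries, at a sum of 0.157 ± 0.0404 FPKM, and summed to 3.32 ± 0.835 FPKM in contact. Most of this was Sema3c, known to guide vessels and to act in tumours, at 2.34, 3.34 and 2.09 FPKM in contact and 0.13, 0.08 and 0.07 FPKM in transwell libraries. All contact libraries lay far above, and Sema3c rose 25.4-fold (4.67 ± 0.27, edgeR adjusted p = 1.9e-06). Sema3f, which acts through neuropilin-2, rose from 0.01, 0.04 and 0.01 FPKM to 0.48, 0.6 and 0.44 FPKM (21.3-fold, 4.42 ± 0.47, edgeR adjusted p = 6.6e-05). Its fold rests on 6 transwell counts and was 40.2 without transwell replicate 2. Both had their highest contact level in replicate 2 and their lowest in replicate 3, the order of the epithelial marker sum.

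Transmembrane class 6 members moved in opposite directions. Sema6b, a ligand of A-type plexins, fell from 4.55, 3.9 and 4.1 FPKM in transwell to 2.71, 2.34 and 2.34 FPKM in contact libraries (1.84-fold, -0.88 ± 0.12, edgeR adjusted p = 3.1e-04). Sema6d, a ligand of plexin-A1, rose from 0.17, 0.17 and 0.16 FPKM to 1.09, 0.81 and 0.93 FPKM (5.2-fold, 2.38 ± 0.19, edgeR adjusted p = 1.0e-05). Groups were apart for both, and Sema6d was lowest in contact replicate 2, the library with the highest epithelial marker sum. Sema7a, a lipid-anchored ligand of plexin-C1 and of integrins, stood at 1.28, 0.81 and 0.79 against 0.83, 0.28 and 0.39 FPKM. It was not called (0.81 ± 0.40, edgeR adjusted p = 0.142), and transwell replicate 1, also the transwell library with the highest neutrophil marker sum, was the one that overlapped. Without that library Sema7a was called higher (1.39, adjusted p = 0.0125).

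Ephrins were low in transwell libraries, at a sum of 1 ± 0.132 FPKM, and reached 8.51 ± 2.25 FPKM in contact. Efnb1 (ENSMUSG00000031217, chromosome X, 99136130 to 99148991 on GRCm38, protein-coding), a transmembrane ligand of EphB receptors, held most of the transwell level. It stood at 4.31, 6.66 and 3.26 FPKM in contact and 0.77, 0.91 and 0.7 FPKM in transwell libraries, and rose 5.51-fold (2.46 ± 0.26, edgeR adjusted p = 6.6e-05). Efnb2, the ligand of EphB4 that marks arterial endothelium, rose from 0.05, 0.06 and 0.07 FPKM to 0.59, 0.77 and 0.64 FPKM (10.1-fold, 3.34 ± 0.27, edgeR adjusted p = 1.4e-05). Replicate 2 was the highest contact library for Efnb1 and Efnb2.

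A-type ephrins had at most 8 transwell counts each. Efna1, the main ligand of EphA2, stood at 1.16, 1.59 and 1.45 FPKM in contact and 0.12, 0.06 and 0.06 FPKM in transwell libraries and rose 15.9-fold (3.99 ± 0.39, edgeR adjusted p = 3.9e-05). Efna5 stood at 0.95, 1.51 and 1.08 FPKM in contact and at 0.01, 0 and 0 FPKM in transwell libraries. Its 310 against 1 counts gave a rate ratio of 263 (95% interval 46.8 to 10400, exact), and it was called (edgeR adjusted p = 8.6e-06). Efna3, at 0.22 to 0.41 against 0 to 0.02 FPKM and 55 against 2 counts, gave a ratio of 23.3 (95% interval 6.15 to 197, exact) and was called as well.

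Eph receptors, which bind ephrins on neighbouring cells, rose from a sum of 0.413 ± 0.0551 FPKM to 10.5 ± 2.89 FPKM on the mean of 3 libraries, and each of the 8 members was called higher, 7 of which (all but Epha4) had passed the filter through contact alone. Most of the contact sum was Epha2 (ENSMUSG00000006445, chromosome 4, 141301240 to 141329384 on GRCm38, protein-coding), a receptor known for its abundance in epithelial tumours. Epha2 stood at 6.15, 7.83 and 4.04 FPKM in contact and 0.18, 0.02 and 0.05 FPKM in transwell libraries, 64.5-fold higher (6.01 ± 0.43, edgeR adjusted p = 6.4e-06). Transwell replicate 1 held most of its transwell counts, and without it the fold was 153. Ephb4 (ENSMUSG00000029710, chromosome 5, 137350109 to 137378669 on GRCm38, protein-coding), the receptor of ephrin-B2, stood at 1.76, 2.6 and 1.47 FPKM in contact and at 0, 0.01 and 0 FPKM in transwell libraries. With 587 against 1 counts its rate ratio was 497 (95% interval 88.9 to 19700, exact), and it was called (edgeR adjusted p = 3.4e-06).

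Ephb3 stood at 0.68, 0.89 and 0.5 FPKM in contact and at 0.01, 0 and 0.01 FPKM in transwell libraries. Its 298 against 2 counts gave a ratio of 126 (95% interval 34.6 to 1050, exact; edgeR adjusted p = 1.1e-05). Ephb6, a receptor without kinase activity, rose from 0.08, 0.09 and 0.01 FPKM to 1.03, 0.84 and 0.64 FPKM (12.2-fold, 3.61 ± 0.46, edgeR adjusted p = 2.2e-04). The remaining receptors were low in both groups. Epha1 was at 0.26 to 0.54 against 0.04 to 0.13 FPKM (2.17 ± 0.45), Epha4 at 0.35 to 0.37 against 0.1 to 0.13 FPKM (1.56 ± 0.25), and Ephb2 at 0.07 to 0.1 against 0.01 to 0.02 FPKM (2.30 ± 0.41). Epha1 shares 236 of 3928 exon bases with the opposite-strand gene Zyx. Epha7 (0.1 to 0.15 against 0.04 to 0.07 FPKM, 1.11 ± 0.37, edgeR adjusted p = 0.0387) was called, but not when contact replicate 1 (0.93), 2 (1.17) or 3 (1.22) or transwell replicate 1 (1.01) or 2 (0.93) was left out, nor with DESeq2, without the filter, in limma on FPKM or with a replicate block. Both Epha7 (-0.08) and Ephb2 (-0.04) turned direction, uncalled, after quantile normalization, and the calls of Epha1 (0.14) and Epha4 (0.05) ended there.

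**Figure D3:**
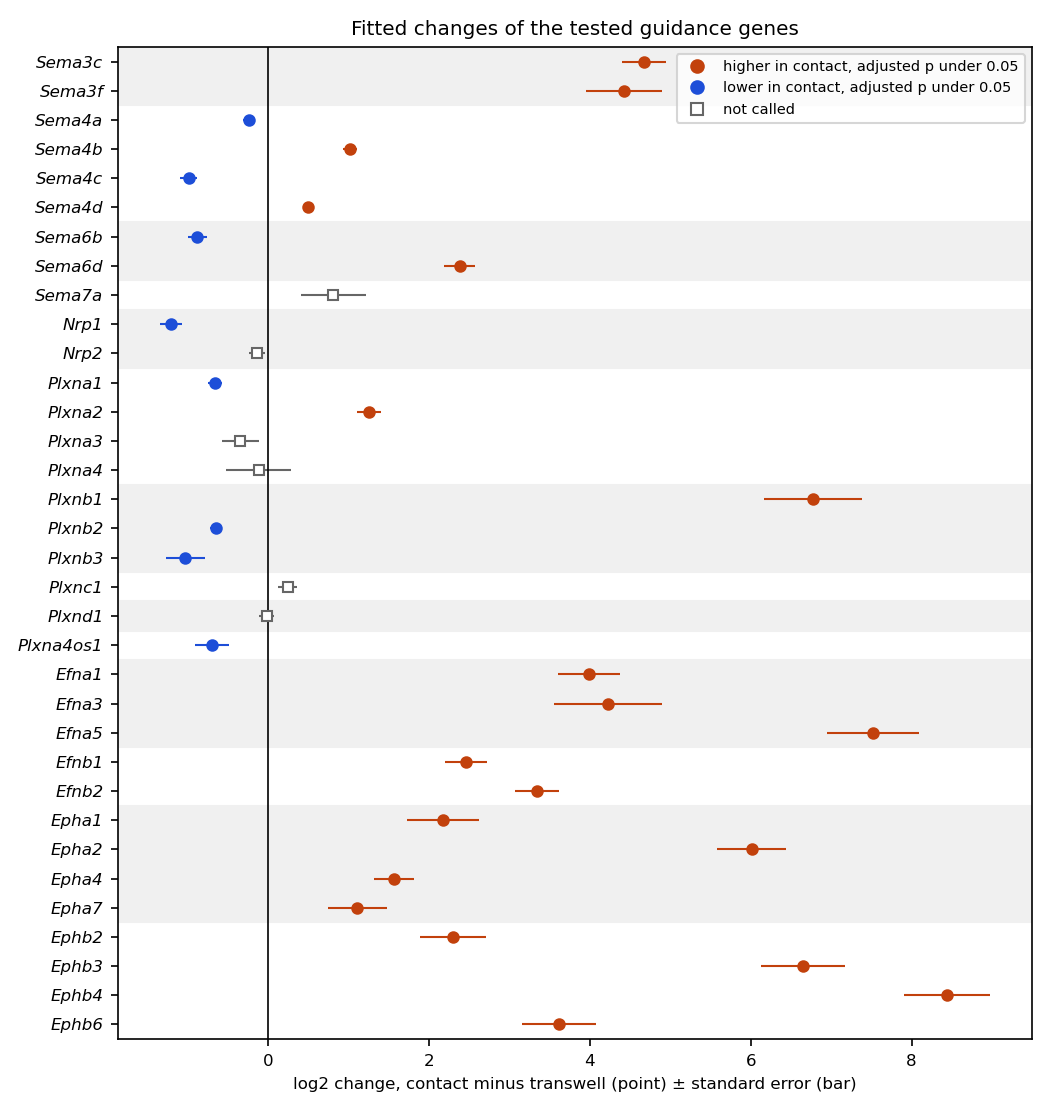
Log2 change, contact minus transwell, with its standard error for the 34 tested members in bands by family. Eph receptors and ephrins all lie right of 0, while semaphorins and plexins lie on both sides, up to 6.77 for Plxnb1. Both neuropilins lie left of 0, Nrp1 at -1.21 and Nrp2 at -0.14. The points of Ephb3, Ephb4, Efna3, Efna5 and Plxnb1 rest on 1 to 3 transwell counts and depend on the fit.

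Promoter letters are shown for 3 members that rose from under 1 FPKM in transwell libraries (Epha2, Ephb4 and Efna5) and for Nrp1, which fell from above it. They have the highest levels on each side among members with a single RefSeq promoter that meets no GENCODE M21 exon and whose start bases were found in a GENCODE M21 transcript of the gene. The run of Nrp1 lies within the span of its GENCODE gene, which has an earlier start. Each run is the 250 bases before the start in RefSeq on GRCm38.p6, read 5′ to 3′ on the strand of the gene, with GC boxes (GGGCGG on either strand) in capitals. They lie at chr4:141300971-141301220 (plus strand), chr5:137349859-137350108 (plus), chr17:62881318-62881567 (minus) and chr8:128358823-128359072 (plus).
Epha2: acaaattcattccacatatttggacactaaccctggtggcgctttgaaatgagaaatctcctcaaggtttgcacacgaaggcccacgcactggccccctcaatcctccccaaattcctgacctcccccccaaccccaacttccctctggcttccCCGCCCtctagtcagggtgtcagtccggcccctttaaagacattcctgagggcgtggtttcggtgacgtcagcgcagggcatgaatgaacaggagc
Ephb4: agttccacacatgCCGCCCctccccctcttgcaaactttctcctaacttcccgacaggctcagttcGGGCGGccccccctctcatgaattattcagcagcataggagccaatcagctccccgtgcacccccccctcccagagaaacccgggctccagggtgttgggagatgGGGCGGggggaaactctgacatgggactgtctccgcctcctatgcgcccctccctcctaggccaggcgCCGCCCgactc
Efna5: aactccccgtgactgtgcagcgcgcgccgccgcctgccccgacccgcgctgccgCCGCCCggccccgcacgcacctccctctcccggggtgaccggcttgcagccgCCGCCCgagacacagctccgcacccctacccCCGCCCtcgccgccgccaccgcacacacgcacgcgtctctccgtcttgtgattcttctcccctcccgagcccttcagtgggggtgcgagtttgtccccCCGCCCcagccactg
Nrp1: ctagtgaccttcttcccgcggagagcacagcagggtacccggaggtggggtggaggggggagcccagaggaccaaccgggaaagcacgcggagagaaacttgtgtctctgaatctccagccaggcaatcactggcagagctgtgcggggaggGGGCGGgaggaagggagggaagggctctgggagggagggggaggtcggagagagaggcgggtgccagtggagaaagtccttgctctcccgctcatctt

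The RefSeq table matched 35 of the 41 members by symbol, with 49 promoters. A GC box was present in 40 of the 49 (81.6%), in 55.8% of promoters of all genes tested and in 32.7% of all promoters in the table. Of the 19 rising genes with a promoter 17 held one, as did 5 of the 6 falling genes with a promoter. The AP-1 motif TGANTCA was found in 3 of the 49 (4.84% of promoters of tested genes), the E-box CACGTG in 2 (8.12%) and the TATA box TATAAA in 1 (6.68%), each on either strand. The median GC content of the member promoters was 64.4%, against 59.6% over tested genes. These matches describe letters in a window and no binding.

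Members that rose differed in how they varied over the contact libraries. The epithelial marker sum had the order replicate 2, then 1, then 3, and was 1.76 times as high in replicate 2 as in replicate 3. That order was shared by 10 of the 20 members that rose, and by 44.3% of all genes that rose. The ratio of replicate 2 to replicate 3 was 1.94 for Epha2, 1.77 for Ephb4, 1.79 for Ephb3, 2.04 for Efnb1, 2.58 for Plxnb1 and 1.60 for Sema3c. It was 0.973 for Sema4d, 1.09 for Sema4b, 0.876 for Sema6d, 0.895 for Plxna2 and 0.998 for Epha4. Between these lay Efna5 (1.39), Sema3f (1.35), Ephb6 (1.3), Efnb2 (1.2), Epha7 (1.11) and Efna1 (1.1), so the ratios formed a range without separate classes. The remaining rises were Epha1 (2.03), Efna3 (1.86) and Ephb2 (0.708). Among the 12 members of at least 1 FPKM in transwell libraries, 10 were lowest in contact replicate 2. So were 27.8% of all genes tested, a share that also covers scarce genes and is not matched in level. The part of the cell mixture in these orders was not tested.

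**Figure D4:**
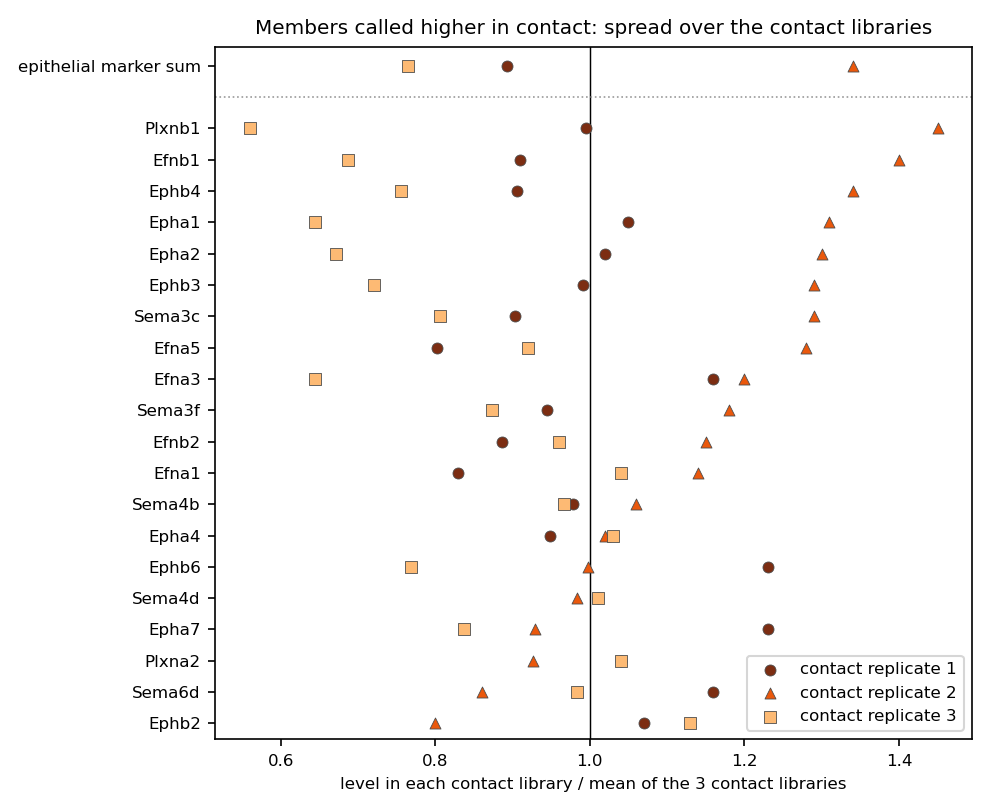
Level in each contact library over the mean of the 3, for the epithelial marker sum and the 20 members that rose, sorted by replicate 2. Replicate 2 lies at 1.34 for the marker sum and at 1.45 for Plxnb1, 1.40 for Efnb1 and 1.34 for Ephb4, while the values of Sema4d lie between 0.983 and 1.01.

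Other genes of these pathways were read from lists set beside the members. Of 33 genes known to act below plexins, such as small GTPases and collapsin response mediators, 30 were tested, 14 rose and 9 fell, with a median log2 change of 0.24, beside 21.4%, 16.1% and 0.03 over all genes tested. Dpysl3, a collapsin response mediator gene, had the largest rise among genes reaching a group mean of 1 FPKM, at 9.93 ± 3.08 against 0.14 ± 0.07 FPKM (6.01 ± 0.31), followed by Farp1, an exchange factor (3.27 ± 0.42). Arhgef11 (-0.63 ± 0.14), an exchange factor that binds B-type plexins, and Rapgef2 (-0.60 ± 0.15), a Rap exchange factor, had the largest falls. Of 32 genes known to act below Eph receptors 29 were tested, 11 rose and 9 fell (21.4% and 16.1% of all genes tested), with a median of -0.05. Ngef, the gene of the Eph-bound exchange factor ephexin, stood at 3.82 ± 0.905 FPKM in contact and had no transwell count. With the transwell group set to a floor of 3 counts in all, its level was at least 276-fold higher in contact. The Src family kinase gene Yes1 rose (1.12 ± 0.274 against 0.0267 ± 0.0115 FPKM), and Anks1 (-0.53 ± 0.07) and Inppl1 (-0.51 ± 0.07), whose products bind Eph receptors, fell. Rises in these lists included Farp1, Ngef, Yes1, Chn1 and Grb10, each with at most 29 transwell counts in all. That is too few to pass the filter there. Dpysl3, with 52 transwell counts in all and 0.07 FPKM in transwell replicate 3, fell short there as well. Entry through contact counts favours rises.

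Of 15 genes for co-receptors and other partners of semaphorins and plexins 13 were tested, 10 rose and 1 fell (21.4% and 16.1% of all genes tested), with a median of 1.35. Of the rises, Mst1r, Nrcam, Flt1 and Erbb2 had 7 to 16 transwell counts in all, too few to pass the filter there. Their entry through contact counts favours rises and a higher median. Erbb2, a receptor kinase known to join plexin-B1, stood at 1.22 ± 0.406 against 0.0533 ± 0.0306 FPKM (4.32 ± 0.42, on 16 transwell counts), and Havcr2, the gene of TIM-3, at 11.2 ± 0.939 against 2.27 ± 0.366 FPKM (2.19 ± 0.13). TIM-3 is not itself an established partner but a relative of TIM-2, which binds Sema4A. Timd2, the gene of TIM-2, had 2 contact and 2 transwell counts and was not tested. The single fall was Itgb1, an integrin chain that binds Sema7A (-0.22 ± 0.07, edgeR adjusted p = 0.0429). Cd72, the immune receptor of Sema4D, named after its values were seen, stood at 48.18, 45.88 and 43.87 FPKM in contact and 26.2, 31.05 and 27.96 FPKM in transwell libraries and rose 1.49-fold (0.58 ± 0.08, edgeR adjusted p = 3.7e-04).

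The 7 members that did not pass the filter on low counts were Sema3a, Sema3b, Sema3e, Sema4g, Sema5a, Sema6c and Efnb3. None exceeded 0.25 FPKM in any library, and each had more counts in contact, from 27 against 15 for Sema4g to 46 against 5 for Sema5a. When all genes with a count were tested, 3 of the 7 were called higher, Sema3b (2.12 ± 0.70), Sema5a (2.75 ± 0.73) and Sema3e, whose 39 against 3 counts gave a rate ratio of 11 (95% interval 3.5 to 55.7, exact). In that setting 3446 of all 27491 genes tested were called higher. A further 15 genes of these families lay under 30 counts, 2 of them with none. They were Sema3d, Sema3g, Sema4f, Sema5b, Sema6a, Efna2, Efna4, Epha3, Epha5, Epha6, Epha8, Epha10, Ephb1 and the non-coding Plxna4os2 and Plxna4os3.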

How the data were processed

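RNA of 3 contact and 3 transwell libraries was compared, grouped by sample title. The authors deposited raw read counts per gene and FPKM per library, per the file headers, and 99.93% of FPKM values with a count above 100 lay within 1% of the value from count, exonic length and library total. GRCm38 and mm10 are the builds named in the notes on processing left by the submitters. The sources used here do not give the aligner, counter, annotation or strand setting. Positions are from GENCODE M21 by gene ID.

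Counts were filtered with filterByExpr (minimum count 10, 14113 genes kept), scaled with TMM and tested with edgeR's quasi-likelihood test (edgeR 4.0.16, R 4.3.3; two-sided, Benjamini-Hochberg over all genes tested, threshold 0.05), after a test on simulated data. Standard errors are the absolute log2 change over the square root of F. Alternatives used limma 3.58.1 and DESeq2 1.42.0. Rate ratios are exact binomial intervals on counts per library total. Chi-square between replicates was 6.376 to 25.18 per degree of freedom, so none agreed within sampling noise. The members and gene lists were chosen with earlier results of these data known. Values per library are given for members of mean 1 FPKM or more, and for called members with separate groups and 0.5 FPKM or more in the higher group. For each pathway list up to 2 largest rises and 2 largest falls with 1 FPKM or more are named. No list was tested as a set. Of the cell type lists, lymphocyte markers (10.8 to 11.3 FPKM summed in contact, 9.29 to 11.8 in transwell libraries; of 2 tested 1 rose and 1 fell) and dendritic cell markers (2.17 to 3.42 against 2.36 to 4.44 FPKM) are given here only. Figures were drawn with matplotlib 3.10.9.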

Additional observations from a re-analysis of the deposited data

How the results depend on the processing

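Over 17 alternatives, 21 of the 34 tested members kept their direction and their side of the threshold in every alternative that tested them. Of 537 member values 491 did so, 27 lost and 8 gained the call, and 11 changed sign, all uncalled under that alternative. These were Epha7 (-0.08) and Ephb2 (-0.04) after quantile normalization of FPKM, Plxna4 without contact replicate 3 (0.09; -0.51 to 0.09 over left-out libraries), and Plxnd1 with upper quartile scaling (0.01), a mean of 1 FPKM (0.02) or a transwell mean of 1 FPKM (0.04) required, limma with either pseudocount (0.10), quantile normalization (0.06), and without contact replicate 2 (0.05) or transwell replicate 1 (0.06; -0.11 to 0.06 over left-out libraries). With a mean of at least 1 FPKM required, 15 members were tested and 12 called, 5 higher. Of all 11038 genes tested there, 4006 were called and 2155 were higher. With a mean transwell level of at least 1 FPKM, a filter chosen after the data were seen, 12 members were tested and 8 called, 2 higher. Of all 10577 genes tested there, 3579 were called and 1864 were higher. Fewer members could be tested there. Over all genes 1422 were lower in limma on log2(FPKM + 1), 1442 with a pseudocount of 0.1 and 3418 after quantile normalization. The cause was not tested. The median of all genes was 0.138 with the pseudocount of 0.1 and 0.025 in edgeR. With each library left out in turn 25 to 31 of 35 to 40 tested members were called, 19 to 23 higher and 6 to 8 lower. Of all 14319 to 14894 genes tested, 4042 to 5310 were called. Deviations of same-numbered libraries showed no clear positive correlation (-0.0828, -0.445 and 0.0557). With 3 libraries per group these values cannot settle whether the numbers pair the libraries. With a replicate block 27 members were called, 20 higher and 7 lower, and 5124 of all genes, and no library correlated best with its own number. Some levels under about 0.1 FPKM rest on a few counts, such as that of Efna5 in transwell libraries, with 1 count. Others do not, such as that of Ephb2 in contact libraries, with 71 counts at a mean of 0.0867 FPKM.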

Other observations

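Among 22 genes of other guidance families (netrins, slits, their receptors and repulsive guidance molecules) 12 were tested, 7 rose and 2 fell, where 21.4% of all genes tested rose and 16.1% fell. Of the rises, Rgma, Ntn4, Robo1, Robo2 and Slit2 had 4 to 9 transwell counts in all, too few to pass the filter there. They could be tested only through their contact counts, a route that favours rises. Rgma, the gene of a lipid-anchored ligand of neogenin, stood at 1.01, 1.66 and 0.71 FPKM in contact and 0.01, 0.01 and 0.02 FPKM in transwell libraries (log2 change 6.21 ± 0.51, edgeR adjusted p = 1.4e-05), with 4 transwell counts in all. Its receptor gene Neo1 rose from 0.26 ± 0.052 to 1.74 ± 0.391 FPKM (SD, n = 3; 2.61 ± 0.21), and both had the order of the epithelial marker sum over the contact libraries. Rgmb (-0.40 ± 0.09) and Ntng2, a lipid-anchored relative of netrins (-0.66 ± 0.11), had their groups apart and fell, from transwell levels of 4.11 ± 0.261 and 7.42 ± 0.556 FPKM. Unc5b, a netrin receptor gene of macrophages, stood at 1.66 to 1.99 against 1.06 to 1.44 FPKM and was not called (edgeR adjusted p = 0.0504).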
